A study of Mus musculus with 12 samples.

Results

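The genes described here are 44 members of the unfolded protein response and of the secretory machinery of the endoplasmic reticulum (ER), together with a pair of plasma cell markers. They were chosen as the rows of the count tables that carry the symbols of a list of ER chaperones, disulfide isomerases, translocon and signal peptidase subunits, degradation factors, stress sensors and stress response genes. All 44 were found among the 26608 genes listed, and all 44 passed the filter on low counts that left 16035 genes tested. RNA was sequenced, 1 library per mouse, from CD4+ T cells without YFP (YFP(FOXP3)-) of mice aged 14 weeks. The sort drew on the spleen pooled with inguinal and cervical lymph nodes.

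The WT group held 4 Foxp3Cre WT mice. The other 8 mice were Foxp3-Cre Tet2/3 fl/fl, in which Cre is made with YFP from the *Foxp3* locus and deletes the floxed *Tet2* and *Tet3* alleles in cells that express or have expressed *Foxp3*. The study divided these mice by the number of cells in spleen and lymph nodes into 4 DKO-moderate and 4 DKO-severe mice, so both groups share 1 genotype and differ in the extent of disease. All 12 mice carried the Cre, which the study describes as possibly leaky. In the DKO mice the sorted cells mix former Treg cells with conventional CD4+ T cells, and the counts do not show which cells carry the deletion. In such bulk samples, fewer cells of a type and less RNA per cell cannot be told apart. The paper describes the WT cells as largely naive and the conventional CD4+ T cells of DKO mice as mostly activated or memory. It also reports many FOXP3- CD4+ cells with surface markers of follicular helper T cells in DKO-severe mice. Cell state thus differs between the groups along with genotype and disease, and the part of each was not tested. Nothing in the labels names a litter or a day, and the p-values measure the spread between these mice.

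Proteins that enter the ER are threaded through the Sec61 translocon, lose their signal peptide to the signal peptidase complex, and fold with the help of chaperones such as BiP, disulfide isomerases, and the lectins calnexin and calreticulin. Chains that fail to fold are trimmed by EDEM mannosidases and sent back to the cytosol for degradation through derlins and the HRD1 ubiquitin ligase. When unfolded chains accumulate, the sensors IRE1, ATF6, and PERK act: IRE1 splices the *Xbp1* transcript, ATF6 is cut into a transcription factor, and PERK slows translation while it favors the synthesis of ATF4. Plasma cells, which secrete antibody, depend on *Xbp1* and hold an expanded ER, and activated T cells also draw on this machinery to make cytokines and receptors.

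The promoters of several members hold the ER stress response element, a sequence that XBP1 and ATF6 are known to use together with NF-Y. It was searched for on both strands as CCAAT, any 9 bases, and CCACG, in windows from 250 bases before to 50 bases after the start of each gene in the RefSeq annotation of GRCm38.p6. Of the 36 members with a promoter in the table, 9 (25.0%) held the element, against 37 of 27025 genes (0.137%). They are shown because they allow the response of genes with the same letters to be compared, with both motifs of the element in capitals, 5′ to 3′ on the strand that carries the element.
*Hspa5*, plus strand, chr2:34772020-34772049: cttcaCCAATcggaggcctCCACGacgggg
*Hsp90b1*, plus strand, chr10:86705528-86705557: actcaCCAATcgtgcctcaCCACGcactct
*Hsp90b1*, minus strand, chr10:86705632-86705661: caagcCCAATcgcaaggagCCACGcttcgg
*Dnajc3*, plus strand, chr14:118937822-118937851: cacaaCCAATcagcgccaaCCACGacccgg
*Creld2*, minus strand, chr15:88819514-88819543: gtggaCCAATtgaggctcgCCACGagaagc
*Pdia6*, plus strand, chr12:17266486-17266515: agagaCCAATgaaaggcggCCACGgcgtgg
*Calr*, plus strand, chr8:84847070-84847099: atgggCCAATgagggtcgaCCACGcgttgt
*Canx*, minus strand, chr11:50325794-50325823: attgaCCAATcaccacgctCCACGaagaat
*Derl3*, minus strand, chr10:75893236-75893265: gctagCCAATggggaagtcCCACGgtagag
*Syvn1*, plus strand, chr19:6046527-6046556: cgcaaCCAATcggcggtagCCACGggaaca

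A second form, ATTGG, any base, and CCACG, was found in 2 of the 36 members and in 12 of all genes (0.0444%). These windows are shown in the same way.
*Dnajb11*, plus strand, chr16:22857843-22857872: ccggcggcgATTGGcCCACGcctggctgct
*Herpud1*, plus strand, chr8:94386368-94386397: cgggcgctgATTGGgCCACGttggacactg
The core TGACGTG of the unfolded protein response element was present in *Hspa5* alone among the 36 and in 2.22% of all genes. The core TGATGCA of the ATF4 element was present in *Herpud1* alone and in 3.63% of all genes. *Atf6*, *Hyou1*, *Manf*, *Derl1*, *Sec61a1*, *Ssr2*, *Spcs3*, and *Sec11c* had no entry.

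Of the deleted genes, *Tet3* was at 167 to 210 CPM in WT, 90.3 to 185 CPM in DKO-moderate, and 87.8 to 102 CPM in DKO-severe, while *Tet2* overlapped between the groups (34.8 to 65.8 CPM). These counts cover whole genes, deleted exons and others together, in a mixture of cells. *Foxp3* was at most 3.1 CPM in any library. Some libraries carried transcripts of other cells. A list of 10 B cell genes summed to 247 CPM (read counts divided by the scaled library size, per 1e+06) in WT 3 and to 6.81 to 15.2 CPM in the other WT libraries, to 21.1 to 47.4 CPM in DKO-moderate, and to 105, 414, 37.7, and 40.4 CPM in the 4 DKO-severe libraries. A list of 11 neutrophil genes summed to 2254 and 830 CPM in DKO-severe 1 and 2, to 23.9 and 10.4 CPM in DKO-severe 3 and 4, and to at most 2.10 CPM in WT and 8.61 CPM in DKO-moderate. All 11 of these genes, and none of the 10 B cell genes, passed as higher in DKO-severe. A list of 8 monocyte and macrophage genes, 3 of them called higher in DKO-severe, summed to 186 CPM in WT 3 and 9.11 to 16.6 CPM in the other WT libraries, to 16.9 to 59.0 CPM in DKO-moderate, and to 485, 406, 155, and 89.6 CPM in DKO-severe. Erythroid genes (4, 1 called higher) summed to 14.9 CPM in WT 3, at most 1.148 CPM in the other WT libraries, 0.691 to 6.12 CPM in DKO-moderate, and 8.93 to 34.1 CPM in DKO-severe. All 4 DKO-severe libraries thus carried more of these transcripts than WT 1, 2, and 4. CD8 T cell genes (2) went the other way, at 16.8 to 26.7 CPM in WT and 3.13 to 8.52 CPM in DKO-moderate. They summed to 1.03 to 13.2 CPM in DKO-severe, and 1 of the 2 was called lower against WT in each DKO group. General T cell genes (8) summed to 4084 to 4582 CPM in WT, 4919 to 5099 CPM in DKO-moderate, and 4151 to 4566 CPM in DKO-severe. A list of 8 proliferation genes, all higher in every comparison, summed to 76.8 to 141 CPM in WT, 225 to 393 CPM in DKO-moderate, and 508 to 1329 CPM in DKO-severe. The labels give no sex. Y-linked genes (4) summed to 463, 0.0, 456, and 451 CPM across WT replicates 1 to 4. They summed to 556, 0.0, 461, and 0.0265 CPM across the DKO-moderate replicates, and 370, 438, 0.571, and 432 CPM across the DKO-severe replicates. Each group thus held libraries with and without these transcripts. The part of all these transcripts, and of sex, in the results was not tested, except where values are given below with terms for them or without the libraries that carry them.

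In DKO-severe against WT, 18 of the 44 members were higher, 8 were lower, and 18 did not pass (edgeR quasi-likelihood test, adjusted p under 0.05). Over all genes tested, 26.6% were higher and 25.9% were lower (52.6% called), so the share of members called was close to that of all genes. In 19 members all DKO-severe libraries lay above all WT libraries and in 8 below, beside 24.6% and 27.3% of all genes. The median log2 fold change of the members was 0.18, against -0.01 over all genes. In DKO-moderate, which was compared with the same 4 WT libraries, 7 members were higher and 2 were lower, beside 12.3% and 4.74% of all genes (17.1% called). The groups did not overlap in 10 members above and 1 below, beside 14.6% and 10.2% of all genes. Each of the 9 called members had the same call in DKO-severe. In DKO-severe against DKO-moderate, 5 members were higher and 6 were lower, beside 9.41% and 10.7% of all genes (20.1% called), and the groups did not overlap in 6 members above and 4 below, beside 9.77% and 11.6% of all genes. The direction differed between roles. In DKO-severe the disulfide isomerases and lectins were all higher, and *Atf4*, *Ddit3*, *Trib3*, and *Ppp1r15a* of the PERK arm were all lower. Of the 9 chaperones and cochaperones, 2 were higher, 2 were lower, and 5 did not pass. Of the 9 degradation factors, 6 did not pass.

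**Figure D1:**
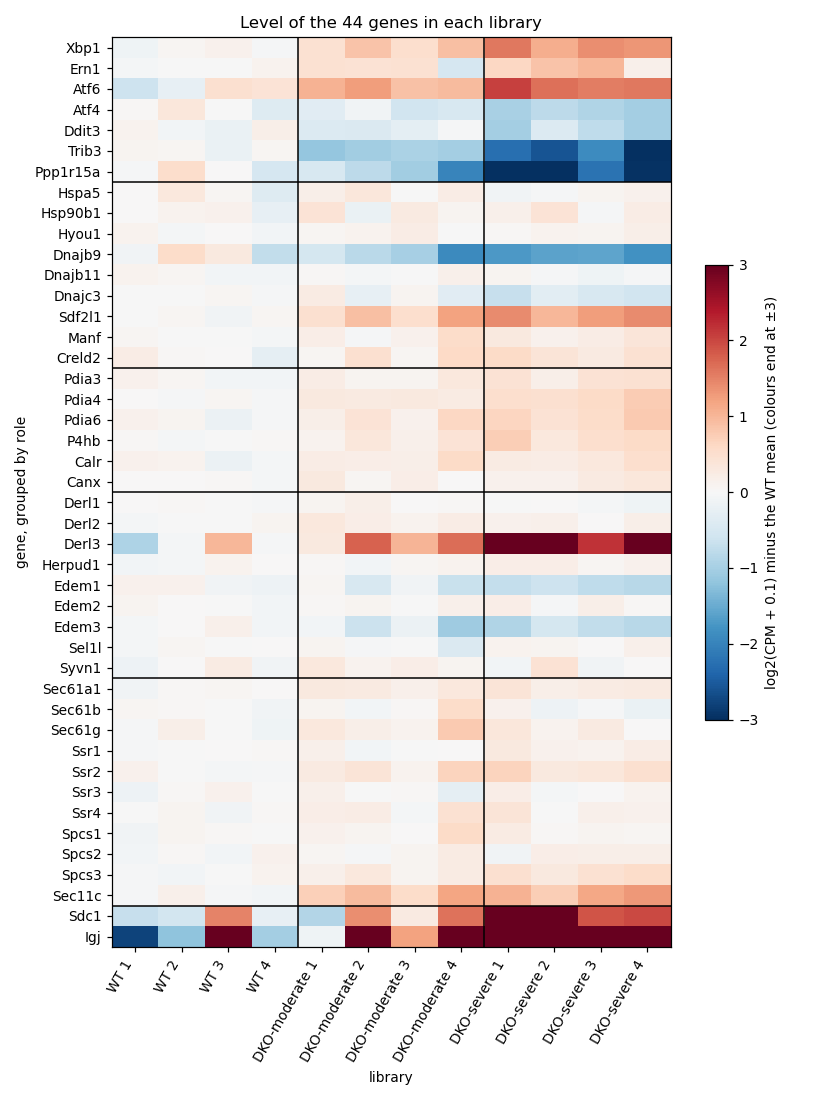
Level of each of the 44 genes (rows, grouped by role and divided by lines) in each of the 12 libraries (columns, divided by group), as log2(CPM + 0.1) minus the mean of the WT libraries, with colors ending at ±3. *Xbp1*, *Atf6*, *Sdf2l1*, and *Sec11c* are red in every DKO library, *Trib3*, *Ppp1r15a*, and *Dnajb9* are blue, and most rows between them stay pale.

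Among the sensors and transcription factors, *Xbp1* (chromosome 11, 5520659 to 5525893, GRCm38), whose spliced product drives the secretory program, was higher. Its level measured 48.6, 55.2, 57.8, and 51.8 CPM across WT replicates 1 to 4, 73.3, 96.4, 75.4, and 100.2 CPM across the DKO-moderate replicates, and 159.7, 112.5, 139.3, and 134.1 CPM across the DKO-severe replicates. The 3 groups did not overlap, and no library of one group reached the next. Relative to WT, the log2 change was 1.35 in DKO-severe (standard error SE = 0.13, edgeR adjusted p = 1.17e-05) and 0.69 in DKO-moderate (SE 0.13, edgeR adjusted p = 0.00362), and between both DKO groups it was 0.66 (edgeR adjusted p = 0.0064). The counts cover the whole gene and do not separate the spliced from the unspliced transcript.

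*Atf6* (chromosome 1, 170704674 to 170867771), the sensor that is itself cut into a transcription factor, showed the largest rise of this class. Its level measured 14.3, 18.5, 30.6, and 29.3 CPM across WT replicates 1 to 4, 45.4, 53.2, 40.5, and 42.8 CPM across the DKO-moderate replicates, and 91.7, 69.7, 64.4, and 66.4 CPM across the DKO-severe replicates. Again the groups did not overlap, although WT 1 and WT 2 lay well below the other WT libraries. Fitted log2 changes were 1.66 in DKO-severe (SE 0.22, edgeR adjusted p = 8.55e-05), 0.97 in DKO-moderate (edgeR adjusted p = 0.0103), and 0.68 between both DKO groups (edgeR adjusted p = 0.0426). *Ern1*, which encodes IRE1, was 0.69 higher in DKO-severe on the log2 scale (SE 0.22, edgeR adjusted p = 0.0213), with DKO-severe at 12.7 to 22.9 CPM and WT at 10.9 to 12.3 CPM. Its call was lost without WT 1 (edgeR adjusted p = 0.0506) or DKO-severe 3 (edgeR adjusted p = 0.0565).

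The 4 members that act downstream of PERK, *Atf4*, *Ddit3*, *Trib3*, and *Ppp1r15a*, were lower in DKO-severe. *Ppp1r15a* (chromosome 7, 45522916 to 45526268) encodes GADD34, which directs the phosphatase that restores translation after PERK has acted. Its level measured 394.7, 574.3, 405.5, and 282.7 CPM across WT replicates 1 to 4, 285.8, 232.9, 194.6, and 101.9 CPM across the DKO-moderate replicates, and 19.6, 50.1, 86.0, and 51.5 CPM across the DKO-severe replicates. Every DKO-severe library was below every other library, while DKO-moderate overlapped WT in 1 library. The fitted log2 change was -2.998 in DKO-severe (SE 0.42, edgeR adjusted p = 0.000128) and -1.97 between both DKO groups (edgeR adjusted p = 0.00824). The change in DKO-moderate did not pass (edgeR adjusted p = 0.0964), and it passed without DKO-severe 1 (edgeR adjusted p = 0.0424), a library outside this comparison that shares the estimate of the spread.

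*Trib3*, a pseudokinase induced by ATF4 and CHOP, fell in steps: 6.04 to 7.38 CPM in WT, 3.06 to 3.55 CPM in DKO-moderate, and 0.790 to 1.81 CPM in DKO-severe, with no overlap. Its log2 fold change was -2.46 in DKO-severe (SE 0.25, edgeR adjusted p = 1.59e-05), -1.07 in DKO-moderate (edgeR adjusted p = 0.00999), and -1.40 between both DKO groups (edgeR adjusted p = 0.00497). *Atf4* itself was at 200.2 to 332.2 CPM in WT, 175.9 to 242.0 CPM in DKO-moderate, and 128.3 to 150.1 CPM in DKO-severe, where it fell by 0.95 on the log2 scale (SE 0.14, edgeR adjusted p = 0.000203). *Ddit3*, which encodes the proapoptotic factor CHOP, had a log2 fold change of -0.79 (SE 0.16, edgeR adjusted p = 0.00136). Neither passed in DKO-moderate (edgeR adjusted p = 0.0803 for *Atf4* and 0.224 for *Ddit3*). In DKO-severe, *Atf4*, *Ddit3*, *Trib3*, and *Ppp1r15a* were each below WT in every library.

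**Figure D2:**
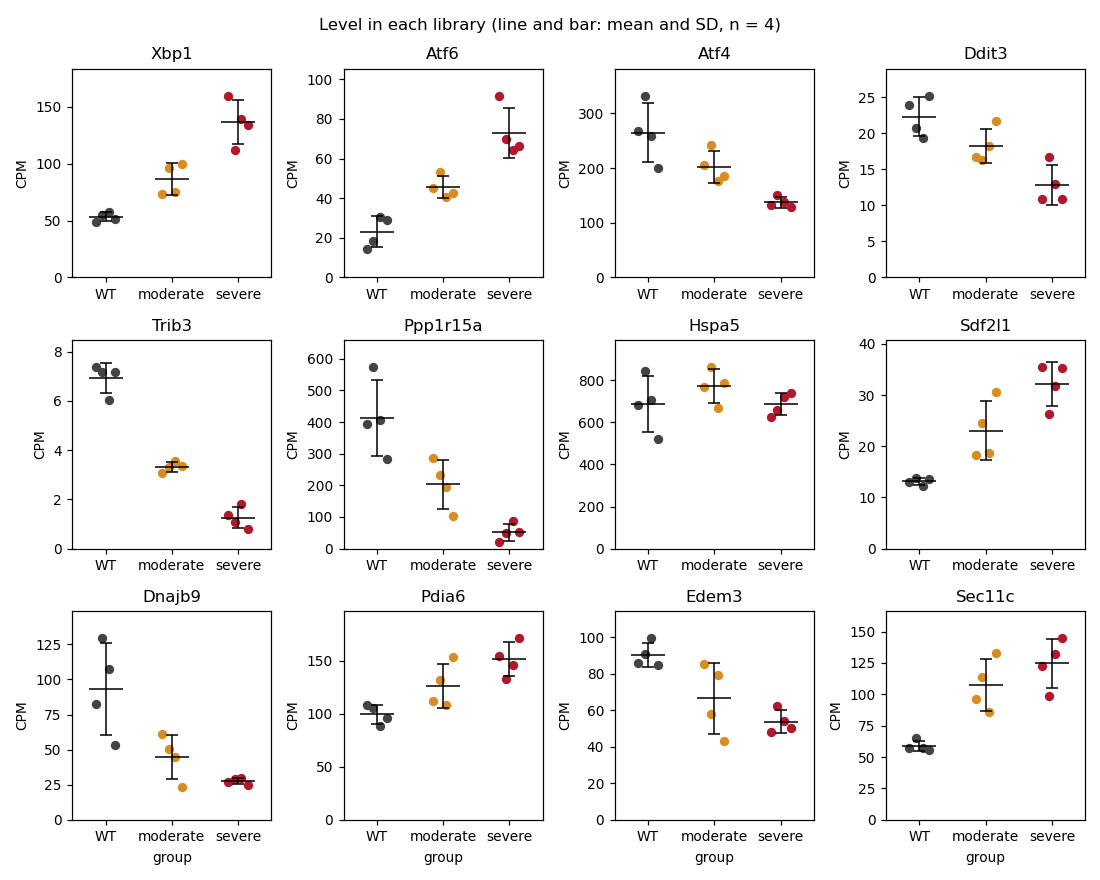
CPM of 12 members (panels, each axis starting at 0) in the 4 libraries of each group (points), with the mean and SD (line and bar, n = 4). The means of *Xbp1* and *Atf6* are ordered WT, DKO-moderate, DKO-severe and those of *Trib3* and *Ppp1r15a* in the opposite order, while *Hspa5* overlaps in all 3 groups.

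Of the 9 chaperones and cochaperones, some of them a usual readout of ER stress, 5 did not pass in DKO-severe. Another 2 were higher and 2 were lower, while 52.6% of all genes tested were called. *Hspa5* (chromosome 2, 34771970 to 34777547) encodes BiP, the chaperone that holds the sensors inactive. Its level measured 682.1, 843.0, 704.9, and 518.9 CPM across WT replicates 1 to 4, 767.2, 863.2, 668.7, and 788.6 CPM across the DKO-moderate replicates, and 624.4, 660.7, 720.2, and 741.2 CPM across the DKO-severe replicates. All 3 groups overlapped, and WT averaged 687 ± 133 CPM (SD, n = 4), DKO-moderate averaged 772 ± 80.2 CPM (SD, n = 4), and DKO-severe averaged 687 ± 53.7 CPM (SD, n = 4). The change on the log2 scale was -0.00 in DKO-severe (SE 0.13, edgeR adjusted p = 0.994) and 0.17 in DKO-moderate (SE 0.13, edgeR adjusted p = 0.411). The sign in DKO-severe changed with the scaling, and with DESeq2's size factors it was 0.08. *Hsp90b1* (GRP94), *Hyou1* (GRP170), *Dnajb11*, and *Manf* did not pass either, with log2 fold changes from -0.03 to 0.25 in DKO-severe. For *Manf*, every DKO-severe library still lay above every WT library (edgeR adjusted p = 0.0722). It passed without DKO-moderate 2, DKO-moderate 4, or DKO-severe 2.

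The members of this class that were called moved in both directions. *Sdf2l1* (chromosome 16, 17130138 to 17132383), which keeps BiP substrates soluble, measured 13.0, 13.7, 12.2, and 13.7 CPM across WT replicates 1 to 4, 18.3, 24.5, 18.8, and 30.5 CPM across the DKO-moderate replicates, and 35.5, 26.4, 31.7, and 35.3 CPM across the DKO-severe replicates. Both DKO groups lay above WT without overlap and overlapped each other through DKO-moderate 4. On the log2 scale, the change was 1.29 in DKO-severe (SE 0.16, edgeR adjusted p = 5.85e-05) and 0.81 in DKO-moderate (SE 0.16, edgeR adjusted p = 0.00582). *Creld2* was 0.41 higher in DKO-severe on the log2 scale (SE 0.14, edgeR adjusted p = 0.031), a call that was lost without WT 2, WT 3, WT 4, or DKO-severe 1 (edgeR adjusted p up to 0.0901).

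*Dnajb9* (chromosome 12, 44205559 to 44210326), which encodes ERdj4, a cochaperone that represses IRE1 and a known target of spliced XBP1, fell instead. Its level measured 82.2, 129.5, 107.7, and 53.3 CPM across WT replicates 1 to 4, 60.8, 50.6, 44.6, and 23.3 CPM across the DKO-moderate replicates, and 26.9, 28.8, 29.4, and 24.9 CPM across the DKO-severe replicates. DKO-severe lay below WT without overlap, and DKO-moderate overlapped both. Relative to WT, the log2 change was -1.76 in DKO-severe (SE 0.29, edgeR adjusted p = 0.000375) and -1.06 in DKO-moderate (edgeR adjusted p = 0.0249), the latter lost without WT 2 (edgeR adjusted p = 0.0816) or WT 3 (edgeR adjusted p = 0.0553). *Dnajc3*, which encodes the PERK inhibitor p58IPK, fell by 0.51 in DKO-severe on the log2 scale (SE 0.12, edgeR adjusted p = 0.00455), with 159.5 to 205.6 CPM against 249.6 to 268.9 CPM in WT.

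The disulfide isomerases and lectin chaperones formed a class in which all 6 members were called alike. They were higher in DKO-severe, and in each of them the 4 DKO-severe libraries lay above the 4 WT libraries (24.6% of all genes tested did so). The log2 fold changes were modest, from 0.21 for *Canx* to 0.60 for *Pdia6*, with a median of 0.46. *Pdia6* (chromosome 12, 17266545 to 17284770), a disulfide isomerase that also shortens the activity of IRE1, measured 108.1, 105.7, 88.2, and 96.2 CPM across WT replicates 1 to 4, 111.7, 132.0, 108.3, and 153.7 CPM across the DKO-moderate replicates, and 154.5, 133.1, 146.2, and 171.4 CPM across the DKO-severe replicates. Its DKO-moderate libraries also lay above WT, but the change there did not pass (edgeR adjusted p = 0.0694), and the change in DKO-severe had an SE of 0.12 (edgeR adjusted p = 0.00138). *Pdia4* (ERp72) was the one member of the class called in all 3 comparisons, with log2 fold changes of 0.58 (SE 0.07, edgeR adjusted p = 4.25e-05) in DKO-severe, 0.28 (edgeR adjusted p = 0.0172) in DKO-moderate, and 0.30 (edgeR adjusted p = 0.0127) between both DKO groups. Its call in DKO-moderate was lost without WT 2 (edgeR adjusted p = 0.0568). *Pdia3*, *P4hb*, and *Calr* had log2 fold changes of 0.37, 0.54, and 0.32 in DKO-severe. *Calr* lost its call without WT 3, WT 4, or DKO-severe 4 (edgeR adjusted p up to 0.0779), and *Canx* lost it without any 1 of the WT libraries, DKO-moderate 3, DKO-severe 3, or DKO-severe 4 (edgeR adjusted p up to 0.102).

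Of the 9 genes of ER-associated degradation, 6 did not pass in DKO-severe: the channel proteins *Derl1* and *Derl2*, *Herpud1*, *Edem2*, and the HRD1 complex genes *Sel1l* and *Syvn1*, with log2 fold changes from -0.05 to 0.14. Among all genes tested, 52.6% were called. *Derl3* (chromosome 10, 75893413 to 75895941), a derlin that is abundant in secretory cells, had the largest fold change of all 44 members from very low levels. Its level measured 0.115, 0.290, 0.719, and 0.301 CPM across WT replicates 1 to 4 (49 reads over 4 libraries), 0.399, 1.29, 0.720, and 1.19 CPM across the DKO-moderate replicates, and 6.295, 4.14, 1.74, and 5.46 CPM across the DKO-severe replicates. DKO-severe lay above both other groups, and the highest WT library was WT 3. Fitted log2 changes were 3.61 in DKO-severe (SE 0.60, edgeR adjusted p = 0.000361, and 4.21 without WT 3), 1.33 in DKO-moderate (edgeR adjusted p = 0.128, and 1.92 without WT 3, where it passed), and 2.29 between both DKO groups (edgeR adjusted p = 0.0154).

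The mannosidase genes *Edem1* and *Edem3* fell. *Edem3* (chromosome 1, 151755371 to 151822051) measured 86.0, 90.8, 99.6, and 85.0 CPM across WT replicates 1 to 4, 85.5, 58.0, 79.3, and 43.3 CPM across the DKO-moderate replicates, and 47.8, 62.4, 54.3, and 50.2 CPM across the DKO-severe replicates. DKO-severe lay below WT, and DKO-moderate spread over both ranges. The log2 fold change of *Edem3* in DKO-severe was -0.75 (SE 0.18, edgeR adjusted p = 0.00389), and that of *Edem1* was -0.74 (SE 0.14, edgeR adjusted p = 0.00112). In DKO-moderate neither passed.

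In the translocon and signal peptidase, 5 of 11 genes were higher in DKO-severe, none was lower, and the rest had log2 fold changes from -0.06 to 0.18. Among all genes tested, 26.6% were higher and 25.9% lower. *Sec11c*, a catalytic subunit of the signal peptidase, had the largest change of the class. Its level measured 57.6, 64.9, 57.4, and 55.8 CPM across WT replicates 1 to 4, 96.4, 114.0, 86.1, and 133.0 CPM across the DKO-moderate replicates, and 122.3, 98.8, 132.3, and 144.8 CPM across the DKO-severe replicates. WT was below both DKO groups without overlap, and the DKO groups overlapped. The fitted log2 change was 1.08 in DKO-severe (SE 0.14, edgeR adjusted p = 7.87e-05) and 0.87 in DKO-moderate (SE 0.14, edgeR adjusted p = 0.00182). *Spcs3*, another subunit of the same complex, rose by 0.45 in DKO-severe on the log2 scale (SE 0.08, edgeR adjusted p = 0.000528), while *Spcs1* and *Spcs2* did not pass. *Sec61a1*, the pore of the translocon, rose by 0.28 in DKO-severe and 0.25 in DKO-moderate, and *Ssr2* by 0.45 and 0.38. *Ssr1* rose by 0.19 in DKO-severe. The call of *Ssr1* was lost without any 1 of the WT libraries or DKO-severe 1 (edgeR adjusted p up to 0.112). In DKO-moderate, *Sec61a1* lost its call without WT 1, WT 2, WT 4, DKO-moderate 1, or DKO-moderate 2 (edgeR adjusted p up to 0.0941), and *Ssr2* lost it without any 1 library except DKO-moderate 3 and DKO-severe 1 (edgeR adjusted p up to 0.111).

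**Figure D3:**
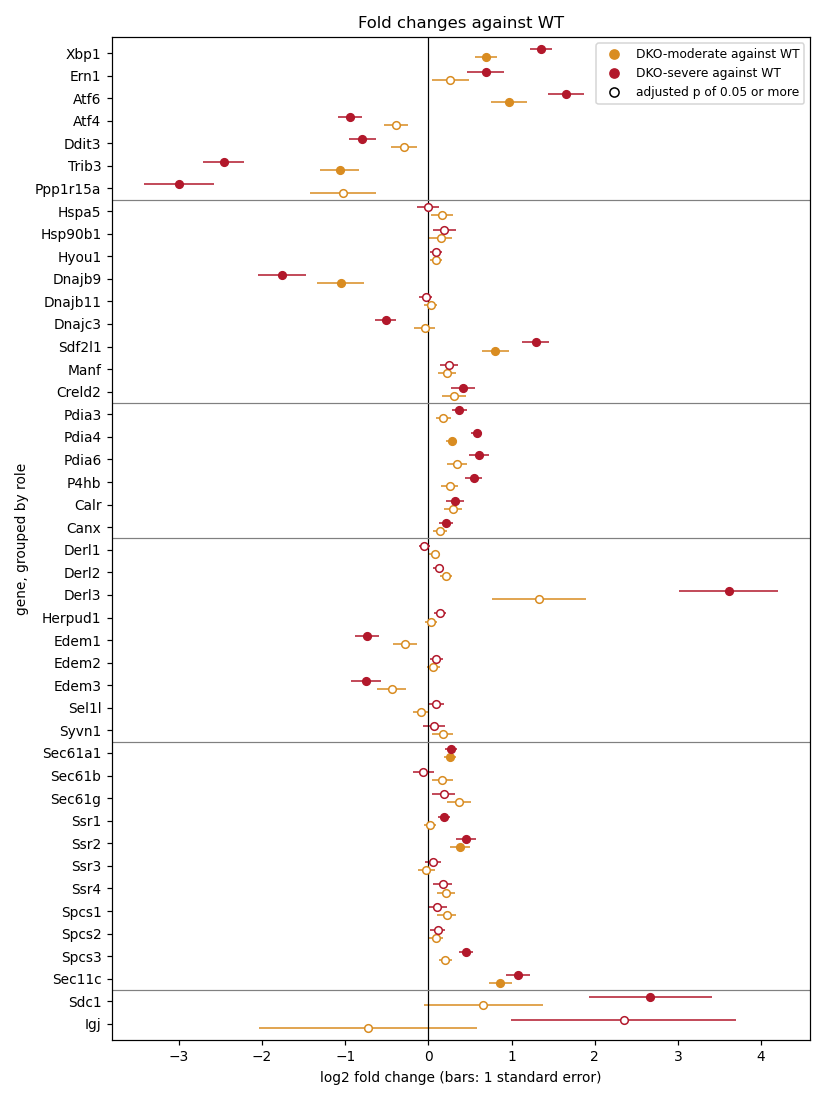
log2 fold change (horizontal axis) of each member against WT in DKO-moderate and DKO-severe, with bars of 1 standard error and open points where the edgeR adjusted p was 0.05 or more. Genes are grouped by role, and the 6 disulfide isomerases and lectins lie between 0.21 and 0.60 in DKO-severe.

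Levels were compared between genes as CPM per kilobase of exon. *Hspa5* (162.5 CPM per kilobase), *Calr* (158), *Ppp1r15a* (141), *Pdia3* (139), and *Atf4* (112) had the highest levels in WT. In DKO-severe the order was led by *Calr* (198 CPM per kilobase), *Pdia3* (180), and *Hspa5* (162), while *Ppp1r15a* (17.6) went from place 3 to place 30 and *Xbp1* (16.4 in WT and 42.0 in DKO-severe) from place 28 to place 16. *Derl3* and *Sdc1* remained among the 3 lowest members in all groups, below 2.5 CPM per kilobase.

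Members that share the promoter element were called in both directions. Of the 9 members with the ER stress response element shown above, 5 were higher in DKO-severe (*Creld2*, *Pdia6*, *Calr*, *Canx*, and *Derl3*), 1 was lower (*Dnajc3*), and 3 were not called (*Hspa5*, *Hsp90b1*, and *Syvn1*). Among all genes tested, 26.6% were higher and 25.9% lower (52.6% called), and a difference from these shares was not tested. *Dnajb11* and *Herpud1*, with the second form, were not called. *Xbp1*, *Sdf2l1*, *Pdia4*, and *Dnajb9* had an entry without either form in the window searched.

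*Igj* (chromosome 5, 88519809 to 88527891, named *Jchain* in the annotation) encodes the chain that joins IgM and IgA, and with *Sdc1* (CD138) it marks plasma cells. *Igj* levels were 0.259, 0.968, 79.9, and 1.121 CPM across WT replicates 1 to 4, 2.15, 20.7, 5.64, and 21.3 CPM across the DKO-moderate replicates, and 162.8, 159.0, 43.1, and 54.2 CPM across the DKO-severe replicates. WT 3 thus exceeded all DKO-moderate libraries and DKO-severe 3 and 4, and the fold change in DKO-severe did not pass (log2 2.35, SE 1.35, edgeR adjusted p = 0.16). Without WT 3 it was 7.06 (edgeR adjusted p = 0.000283), and in DKO-moderate it went from -0.73 (edgeR adjusted p = 0.737) to 3.98 (edgeR adjusted p = 0.0169).

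*Sdc1* (chromosome 12, 8771323 to 8793715) measured 0.259, 0.290, 1.52, and 0.383 CPM across WT replicates 1 to 4, 0.213, 1.42, 0.596, and 1.67 CPM across the DKO-moderate replicates, and 6.68, 4.84, 2.02, and 2.18 CPM across the DKO-severe replicates. DKO-severe lay above the other groups, and WT 3 was again the highest WT library. The change on the log2 scale was 2.67 in DKO-severe (SE 0.74, edgeR adjusted p = 0.00968), 0.66 in DKO-moderate (edgeR adjusted p = 0.557), and 2.01 between both DKO groups (edgeR adjusted p = 0.0666, and 0.0348 without WT 3). Without WT 3 the change of *Sdc1* was 3.64 in DKO-severe (edgeR adjusted p = 0.00184) and 1.63 in DKO-moderate (edgeR adjusted p = 0.13). Of 13 further plasma cell genes on a list, 4 had a row. *Mzb1* followed *Igj* in WT 3 (6.76 CPM, against at most 0.0575 CPM in the other WT libraries) and reached 4.09 to 21.7 CPM in DKO-severe. *Tnfrsf17* stayed at or below 0.325 CPM in every library, and *Fcrl5* was highest in WT 3 (1.52 CPM), DKO-severe 1 (1.04 CPM), and DKO-severe 2 (3.01 CPM). *Pou2af1*, a transcriptional coactivator that B and T cells also express, was the one of the 4 that passed: WT had 16.4, 15.3, 37.5, and 24.3 CPM, DKO-moderate ranged from 46.4 to 123.3 CPM, and DKO-severe ranged from 191.2 to 233.8 CPM. The groups did not overlap, and the fitted log2 change of *Pou2af1* was 3.16 in DKO-severe (SE 0.33, edgeR adjusted p = 1.98e-05), 1.69 in DKO-moderate (edgeR adjusted p = 0.00413), and 1.47 between both DKO groups (edgeR adjusted p = 0.00928).

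**Figure D4:**
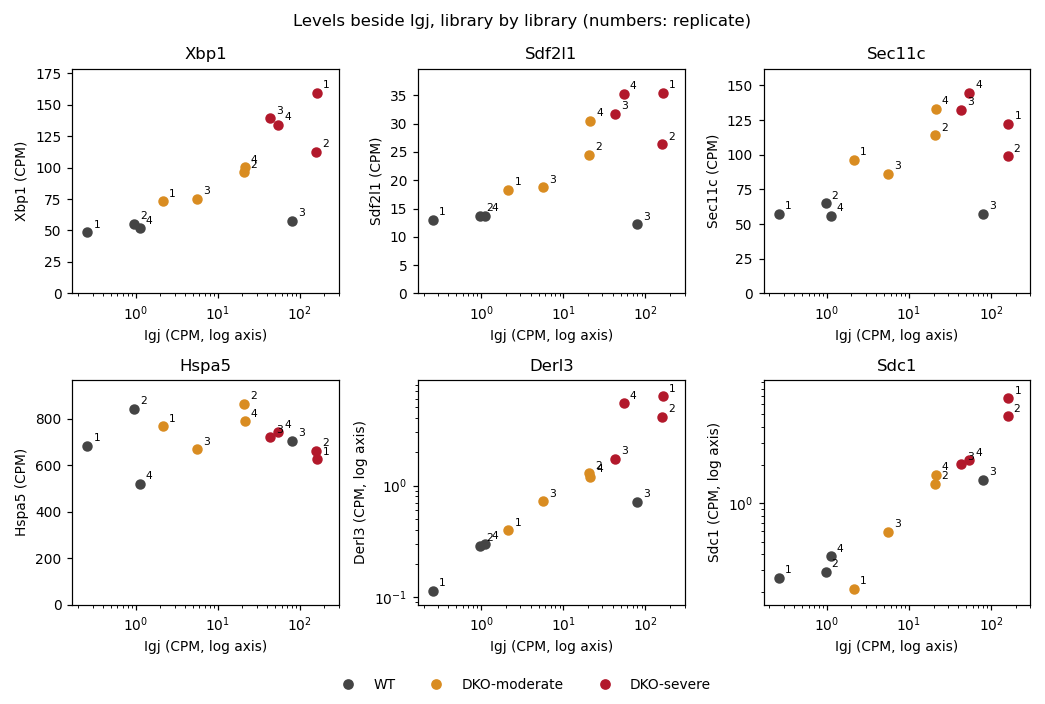
CPM of 6 members (vertical axes, linear for *Xbp1*, *Sdf2l1*, *Sec11c*, and *Hspa5* and logarithmic for *Derl3* and *Sdc1*) against CPM of *Igj* (horizontal axes, logarithmic), with 1 point per library, colored by group and numbered by replicate. WT 3 lies at 79.9 CPM of *Igj* with the *Xbp1*, *Sdf2l1*, and *Sec11c* levels of the other WT libraries.

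WT 3 held more *Igj* than DKO-severe 3 and 4. For all 26 members called in DKO-severe, every DKO-severe library lay on the same side of every WT library, so the order of these 3 libraries follows from the call, and their values are given as a description. *Xbp1* was at 57.8 CPM in WT 3, and it was 2.41 times that in DKO-severe 3 and 2.32 times in DKO-severe 4, whose *Igj* was 0.539 and 0.679 times that of WT 3. For *Sdf2l1* these ratios were 2.60 and 2.89, and for *Sec11c* 2.30 and 2.52. For *Derl3* they were 2.42 and 7.59, and for *Sdc1* 1.33 and 1.43. Within WT, *Igj* in WT 3 was 102 times the mean of the other 3 libraries, *Sdc1* was 4.91 times, and *Derl3* was 3.05 times, while the other 41 members ranged from 0.828 times (*Ddit3*) to 1.48 times (*Atf6*), with a median of 0.988 times. *Igj* and the members both differ between the groups, and no correlation over the 12 libraries is given.

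With a term for the level of *Igj* in the model, 10 members were higher and 4 were lower in DKO-severe against WT (13.3% and 11.1% of all genes tested), and all 26 members called without the term kept their direction. The 10 were *Xbp1*, *Atf6*, *Sdf2l1*, *Pdia3*, *Pdia4*, *Pdia6*, *P4hb*, *Derl3*, *Spcs3*, and *Sec11c*, and the 4 were *Atf4*, *Trib3*, *Ppp1r15a*, and *Dnajb9*. *Xbp1* then had a log2 fold change of 1.13 (edgeR adjusted p = 0.00219), *Derl3* had 2.19 (edgeR adjusted p = 0.0245), and *Sdc1* had 0.62 (edgeR adjusted p = 0.498). In DKO-moderate, 5 members remained higher with the term (*Xbp1*, *Atf6*, *Sdf2l1*, *Pdia4*, and *Sec11c*) and 2 remained lower (*Trib3* and *Dnajb9*), beside 8.48% and 2.14% of all genes. Between both DKO groups *Trib3* alone passed, beside 1.69% higher and 1.31% lower of all genes. The share of all genes that kept their direction is not given. For *Igj* itself, all DKO-severe libraries lay above all DKO-moderate libraries. The term therefore cannot separate plasma cell RNA from T cell RNA that differs between the groups. With terms for the B cell and neutrophil lists, 7 members were higher and 2 lower in DKO-severe against WT (11.8% and 4.4% of all genes), and none passed between both DKO groups (4 higher and 2 lower at an unadjusted p under 0.05), where 0.511% and 0.0748% of all genes did.

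Leaving out WT 3, DKO-severe 1, and DKO-severe 2, the libraries with the most B cell or neutrophil transcripts, gave 13 members higher and 8 lower in DKO-severe against WT (23.4% and 19.7% of all genes). All 8 lower members and 12 of the 18 higher members were called again, and *Igj* was the one added. This choice of libraries was made after their values were seen.

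Between DKO-severe and DKO-moderate, *Xbp1*, *Pdia4*, *Derl3*, *Trib3*, and *Ppp1r15a* kept their call without each library in turn. *Atf6* lost it without DKO-moderate 1, 3, or 4 or DKO-severe 1, 3, or 4 (edgeR adjusted p up to 0.119), and *Atf4* (log2 -0.56) without DKO-severe 1, 3, or 4 (edgeR adjusted p up to 0.0699). *Dnajc3* (log2 -0.47) lost it without DKO-moderate 1 or 3 or DKO-severe 1, 3, or 4 (edgeR adjusted p up to 0.0805). *Ddit3* (log2 -0.50) lost it without any 1 library except WT 3, DKO-moderate 2, and DKO-severe 2 (edgeR adjusted p up to 0.144). *Edem1* (log2 -0.46) kept it without WT 1, WT 3, WT 4, DKO-moderate 2, or DKO-moderate 4 and lost it otherwise (edgeR adjusted p up to 0.124). *Spcs3* (log2 0.25) kept it without WT 4, DKO-moderate 2, DKO-moderate 4, or DKO-severe 2 and lost it otherwise (edgeR adjusted p up to 0.113).

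A list of 81 other genes of the same pathway, all of them tested, was counted in the same way: 28 were higher and 14 lower in DKO-severe against WT, and 18 were higher and none lower in DKO-moderate, with a median log2 fold change of 0.08 in each. All genes tested gave 26.6% higher and 25.9% lower in DKO-severe and 12.3% and 4.74% in DKO-moderate, the background for the counts of each class that follow. At an unadjusted p under 0.05, 3 were lower in DKO-moderate, and DESeq2 called 2 lower and limma voom 1. Unlike the ATF4 targets among the members, genes of the integrated stress response were more often higher than lower in DKO-severe (7 and 2 of 14), and several of them supply amino acids. *Asns*, asparagine synthetase, averaged 0.713 CPM across WT, 4.55 CPM across DKO-moderate, and 5.51 CPM across DKO-severe, and its log2 fold changes were 2.94 in the latter (SE 0.40, edgeR adjusted p = 9.24e-05) and 2.66 in DKO-moderate (edgeR adjusted p = 0.00106). *Psat1*, of serine synthesis, rose by 1.01 in DKO-severe and 0.81 in DKO-moderate on the log2 scale. *Nupr1*, at a mean of 1.66 CPM in DKO-severe, rose by 2.97 on the log2 scale, but the value ranged from 1.39 to 5.67 over the alternative fits, of which 18 of 25 passed. It was 5.67 without WT 3, and the call was lost without WT 2, WT 4, DKO-severe 1, or DKO-severe 3. *Slc7a11*, the cystine transporter, had 2 reads in WT and 53 in DKO-severe, all of the latter in DKO-severe 1 and 2, the libraries with the most neutrophil transcripts. It is counted among the 7 higher genes with a log2 fold change of 4.54, but 9 of 23 alternative fits passed. The value ranged from -3.15 to 4.99 over them.

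Folding genes outside the members were higher in 7 of 15 cases and lower in none. *Uggt2*, a glucosyltransferase that tags misfolded glycoproteins, had a log2 fold change of 2.44 (SE 0.54, edgeR adjusted p = 0.00257), and *Dnajc1* of 0.52. *Fkbp11* had 1.21 from low levels. *Pdia5* (11 reads in WT) had 3.89, with a range of 2.18 to 7.29 over the alternative fits, of which 17 of 24 passed. It was 2.18 without DKO-severe 4 and 6.53 without WT 3, and the call was lost without that library, WT 1, WT 2, or WT 4. Of the genes that move cargo from the ER to the Golgi, 5 of 16 were higher and 1 was lower. The KDEL receptor gene *Kdelr3*, whose product returns ER residents, went from 5 reads over the WT libraries to 113 in DKO-moderate and 565 in DKO-severe (log2 fold change 6.56, SE 1.07, edgeR adjusted p = 0.000339), and *Kdelr2* rose by 0.63 and *Lman1* by 0.76. *Sec24d* rose by 0.54.

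The oligosaccharyl transferase had 5 of 10 genes higher, among them *Tusc3* (log2 0.71), *Rpn1* (0.41), and *Stt3a* (0.41), and 2 lower, among them the alternative catalytic subunit *Stt3b* (log2 -0.63, edgeR adjusted p = 0.000853). In targeting and translocation 5 of 11 were lower and 1 was higher. *Sec11a*, the other catalytic subunit of the signal peptidase, fell by 0.80 on the log2 scale (SE 0.12, edgeR adjusted p = 0.000163), from a mean of 128 CPM in WT to 73.5 CPM in DKO-severe, while *Sec11c* rose. *Sec63* fell by 0.41 and *Srp9* by 0.34, and the signal recognition particle receptor *Srpr* rose by 0.53. Of 7 other sensors and their proteases, 1 was higher (*Mbtps2*, log2 0.30) and 3 were lower (*Creb3l1*, -1.07; *Creb3*, -0.60; *Mbtps1*, -0.24). Of 8 other degradation genes, *Vcp* (log2 0.46) and *Erlec1* (0.42) rose and *Selk* fell by 0.26. The calls of *Sec24d*, *Mbtps1*, *Mbtps2*, *Creb3l1*, and *Selk* were each lost when one or another single library was left out, with edgeR adjusted p up to 0.067, 0.113, 0.0723, 0.0776, and 0.0853.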

How the data were processed

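RNA was sequenced as directional libraries from 12 mice, 4 per group. The authors aligned the reads to mm10 with STAR (version 2.7.11 in the submitters' processing notes), kept uniquely mapped reads, and assigned them to genes by htseq-count set to reverse strand. The deposited files hold these raw counts, 1 file per library. The libraries held 29254260 to 42133536 reads on genes. Reads not assigned to a gene (18.5% to 23.7%) were left out.

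All 12 libraries were fitted together in edgeR 4.0.16 (R 4.3.3) with TMM scaling and the quasi-likelihood F test, over the 16035 genes with at least 10 reads summed over a group, with Benjamini-Hochberg adjustment over all of them and a threshold of 0.05. The study's DESeq2 (here 1.42.0) and limma voom (3.58.1) were alternatives, with other scalings, filters, a replicate block, terms for other genes, and each library left out. The edgeR fit was tested on simulated data in which few genes changed, equally often up and down, in DKO-severe alone. In the data, 52.6% of genes were called in DKO-severe against WT. The simulation therefore does not show how the fit performs with so many changes. CPM were computed with the TMM factors, and standard errors from the fold change and its F value. Tables and plots were made with Python 3.11.15, pandas 2.3.3, numpy 2.4.6, and matplotlib 3.10.9. Libraries of a group differed beyond counting noise (lowest chi-square per degree of freedom 22.9). Depth covers counting error only.

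All 44 members may be named. Values in every library are given for *Xbp1*, *Hspa5*, *Derl3*, *Sdc1*, and *Igj*, and for the largest rise and fall past the threshold in each class. Up to 4 genes per class were named from the 81 others. The members, lists, and tests were chosen with earlier results of these data known. Gene positions are from GENCODE on GRCm38 and promoters from RefSeq on GRCm38.p6.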

Additional observations from a re-analysis of the deposited data

Results flagged for a closer look

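In 7 of the 132 groups of 4 libraries, 1 library lay apart from the other 3 by Dixon's criterion, and chance alone marks about 1 in 20 groups. *Igj* was at 79.9 CPM in WT 3, where the nearest WT library was at 1.121 CPM, and *Sdc1* was at 1.52 CPM in the same library, with the nearest at 0.383 CPM. WT 3 was also the lowest WT library for *Trib3*, at 6.04 CPM against 7.16 CPM. DKO-moderate 4 was low for *Ern1* (8.001 CPM, nearest 15.5 CPM) and high for *Calr* (671.1 CPM, nearest 533.5 CPM). *Pdia3* was low in DKO-severe 2 (491.8 CPM, nearest 583.4 CPM), and *Spcs2* was low in DKO-severe 1 (156.1 CPM, nearest 187.0 CPM).

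The effect differed between DKO-severe and DKO-moderate for 11 of the 44 members, tested directly between both groups in edgeR. This is the same comparison as above, in which 20.1% of all genes tested were called. None of the 11 kept its call in all 25 alternative fits. On the log2 scale the difference was 0.66 for *Xbp1* (edgeR adjusted p = 0.0064), 0.68 for *Atf6* (edgeR adjusted p = 0.0426), 0.30 for *Pdia4* (edgeR adjusted p = 0.0127), 2.29 for *Derl3* (edgeR adjusted p = 0.0154), and 0.25 for *Spcs3* (edgeR adjusted p = 0.0416). It was -0.56 for *Atf4* (edgeR adjusted p = 0.019), -0.50 for *Ddit3* (edgeR adjusted p = 0.0424), -1.40 for *Trib3* (edgeR adjusted p = 0.00497), -1.97 for *Ppp1r15a* (edgeR adjusted p = 0.00824), -0.47 for *Dnajc3* (edgeR adjusted p = 0.0225), and -0.46 for *Edem1* (edgeR adjusted p = 0.0408).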

How the results depend on the processing

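In DKO-severe against WT, 6 of the 18 higher members (*Xbp1*, *Atf6*, *Sdf2l1*, *Pdia4*, *Derl3*, and *Sec11c*) and 2 of the 8 lower members (*Atf4* and *Trib3*) kept their call in all 25 alternative fits. In DKO-moderate, 4 of 7 (*Xbp1*, *Atf6*, *Sdf2l1*, and *Sec11c*) and 1 of 2 (*Trib3*) did, and between both DKO groups 0 of 5 and 0 of 6 did. The causes of the changes below were not tested.

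In DKO-severe against WT, the count of higher members was 28 with library size alone, 10 with a term for *Igj*, 9 with a term for the plasma cell list, and 7 with terms for the B cell and neutrophil lists. The same 3 terms left 4, 4, and 2 lower members. With these terms 13.3%, 14.1%, and 11.8% of all genes were higher, and 11.1%, 10.5%, and 4.4% were lower. Without a term the shares were 26.6% and 25.9%. In DKO-moderate, 3 were higher and 1 was lower at an adjusted p under 0.01, DESeq2 gave 13 higher, limma voom gave 4 lower, and 1 was lower with the B cell and neutrophil terms and without WT 3, DKO-severe 1, and DKO-severe 2. Between both DKO groups, the higher count was 1 at an adjusted p under 0.01, 12 in DESeq2, 12 in limma voom, 9 with DESeq2's size factors, 10 with library size alone, 8 with the stricter filter (10 reads or more per library of a group), 3 with the replicate block, and 3 without the 3 libraries. It was 0 with the *Igj* term, 0 with the plasma cell term, and 0 with the B cell and neutrophil terms in edgeR, where 6, 3, and 4 were higher at an unadjusted p under 0.05. The lower count was 2 at an adjusted p under 0.01, 3 with library size alone, 3 with only the groups compared, 3 without the 3 libraries, and 1, 0, and 0 with the same terms, where 5, 4, and 2 were lower at an unadjusted p under 0.05. DESeq2 and limma voom were not run with these terms. The plasma cell term was the mean log2 CPM of the 4 listed genes that had a row. Among them *Pou2af1*, which T cells also express, was higher in both DKO groups, so the term is not specific to plasma cells. Between both DKO groups the 3 terms left 1.69%, 0.443%, and 0.511% of all genes higher, and 1.31%, 0.118%, and 0.0748% lower. For the other methods, scalings, and filters no share of all genes is given. Whether the member counts changed there more than those of all genes was not tested.

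Leaving out each library in turn gave 14 to 20 higher and 8 lower members in DKO-severe against WT, 4 to 9 and 1 to 3 in DKO-moderate, and 3 to 8 and 2 to 7 between both DKO groups. Library size alone shifted the median change over all genes to 0.18 (log2) in DKO-severe against WT.

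*Hspa5* in DKO-severe against WT was 0.0813 on the log2 scale in DESeq2 and also with its size factors, 0.19 with library size alone, 0.042 with the stricter filter, 0.0495 with only the groups compared, 0.0127 with the replicate block, 0.0413 with the plasma cell term, 0.0828 with the B cell and neutrophil terms, 0.017 with a term for Y-linked genes, 0.10 without the 3 libraries, and -0.12 to 0.11 with each library left out. *Igj* in DKO-moderate was 1.76 in limma voom, 1.49 with the replicate block, 0.76 with the plasma cell term, 2.59 with the B cell and neutrophil terms, 3.99 without the 3 libraries, and -1.14 to 3.98 with each library left out. With its own term, *Igj* was 0.0373 in DKO-moderate and -0.0353 between both DKO groups by construction, and with the plasma cell term it was -0.68 between them. *Sdc1* in DKO-moderate was -0.0117 with the *Igj* term. The 77 fold changes of members not called gave 1925 alternative values, of which 90 passed and 94 had the opposite sign, none of them both.

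The labels do not say whether the replicate numbers mark anything shared between groups. Residuals of libraries with the same number had correlations of -0.36 to 0.33 over 12 pairs (median -0.10). Libraries with different numbers had -0.38 to 0.42 over 36 pairs (median 0.04). These values cannot show whether a litter or a day was shared. With the number as a replicate block, 15 members were higher and 8 lower in DKO-severe against WT, 5 and 3 in DKO-moderate, and 3 and 5 between both DKO groups. Of the 42 other pathway genes called in DKO-severe, 823 of 1047 alternative values passed and 2 had the opposite sign. *Derl3* had 49 reads in WT and ranged from 0.115 to 0.719 CPM there. Its fold change is limited by low counts and by the spread between mice.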
